A study of Mus musculus with 10 samples.

Results

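The 51 genes described here are targets of the transcription factor NRF2 and the enzymes that cells use against reactive oxygen species, taken by name from a table of 55450 mouse genes and grouped by their roles in glutathione, thioredoxin, superoxide, iron and NADPH metabolism. They were measured in polyadenylated RNA from peeled corneal endothelium, a monolayer that lines the inner face of the cornea, in 5 libraries of Slc4a11-/- mice (KO) and 5 libraries of Slc4a11+/+ mice (WT). All mice were C57BL/6 at 12 weeks of age, and the labels name no treatment. Each library was a pool of 6 peelings from 3 animals, so replicate spread here is a spread between pools, and the sources used here do not say how the Slc4a11 allele was made. SLC4A11 is a transporter in the plasma membrane of these cells, and loss of the human gene causes congenital hereditary endothelial dystrophy.

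NRF2, encoded by Nfe2l2, is held at a low level in resting cells by KEAP1, which marks it for degradation. When oxidants or electrophiles modify KEAP1, NRF2 accumulates, pairs with a small MAF protein and switches on genes for glutathione synthesis, the thioredoxin system, NADPH supply and heme breakdown. NRF2 is thus controlled largely at the protein level, which an RNA count does not measure. The corneal endothelium pumps fluid out of the stroma throughout life, and oxidative damage to these cells is a known feature of corneal endothelial dystrophies in people.

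All 51 members had enough counts to be tested, so no member was lost to the filter on low counts. In KO libraries 6 of them rose (Hmox1, Gpx1, Gsta4, G6pdx, Pgd and Cbr1), 1 fell (Ephx1) and 44 did not pass the test (quasi-likelihood F test of edgeR over all 17729 genes tested, Benjamini-Hochberg adjustment, threshold 0.05). The share called was 13.7% of the members, against 15.3% of all genes tested, 7.59% being higher and 7.73% lower in KO. The members' share was thus close to the background of this comparison. With WT 2 left out, or with WT 3 left out, 3 members rose (Hmox1, Gpx1 and G6pdx). Of the members, 34 had a log2 fold change above 0 and 17 below it. Their median log2 fold change was 0.08, beside 0.00 over all genes tested, and their median size regardless of direction was 0.12, beside 0.15. Together they held 0.831% to 0.96% of each KO library and 0.796% to 0.974% of each WT library. The KO and WT libraries did not overlap for 3 members, Hmox1, Gpx1 and Ephx1, which compares with 12% of all genes tested. Precision was high for most of the rest: for 42 of the 44 members not called, the 95% interval of the fold change lay within 1.5-fold in either direction. The exceptions were Gpx3 (log2 fold change 0.98, interval 0.10 to 1.86) and Gsta3 (0.76, interval 0.10 to 1.41).

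**Figure D1:**
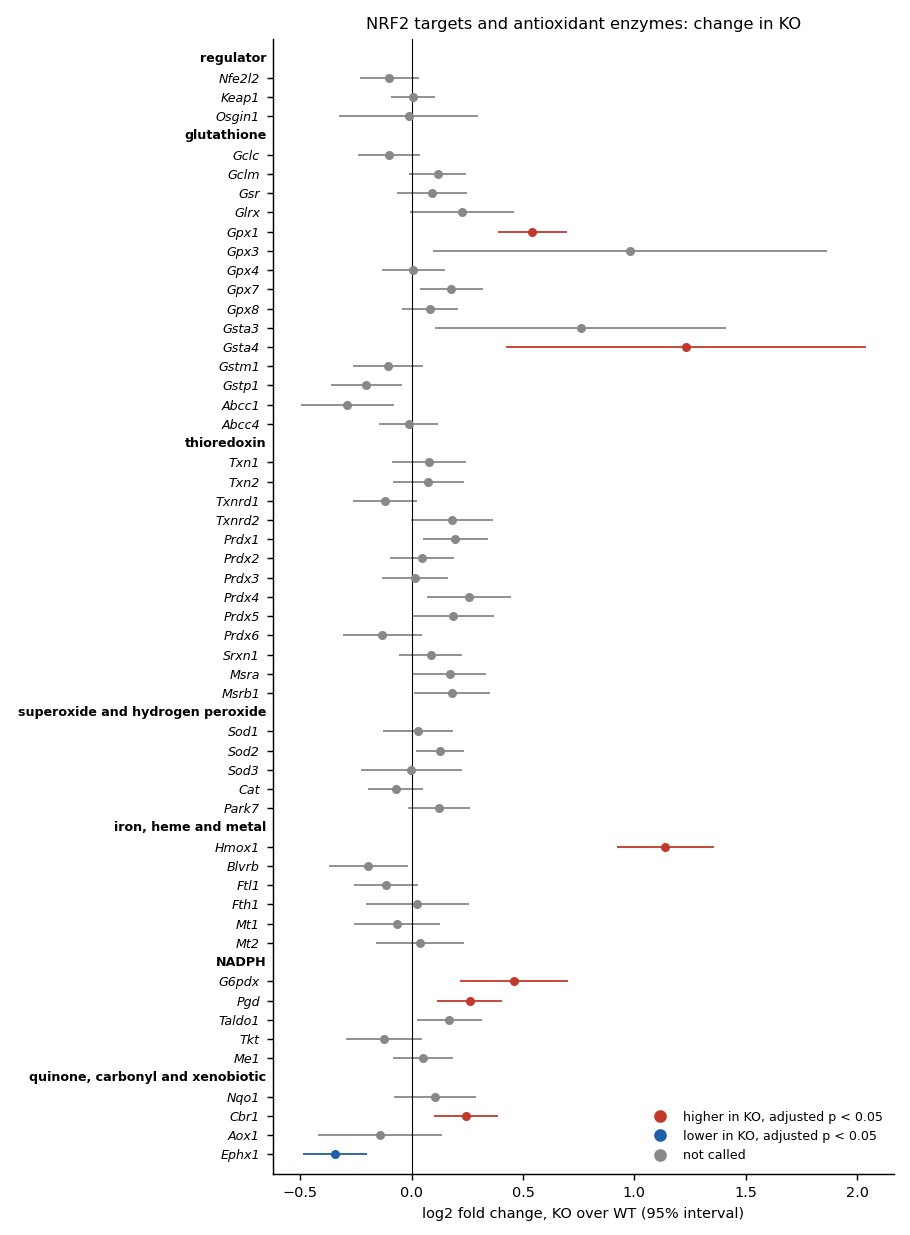
Log2 fold change (KO over WT, horizontal axis) of each of the 51 members with its 95% interval, grouped by role, with the members that passed the test in colour. Most intervals lie close to 0, while Hmox1 at 1.14 and Gsta4 at 1.23 lie farthest to the right and Gsta4, Gpx3 and Gsta3 have the widest intervals.

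The libraries matched their genotype labels and differed in the other cell types they held. Slc4a11 was 95.4 ± 16.2 CPM (counts scaled to a common library size) in KO and 3791 ± 362 CPM in WT (SD, n = 5 each). Total counts were 36026193 to 51008996 per library. Summed markers of corneal endothelium were 23016 to 27634 CPM in KO and 23306 to 26738 CPM in WT, and keratocyte markers were 70747 to 94908 CPM in KO and 68515 to 105770 CPM in WT, so stromal transcripts were abundant in both. Of these markers 1 of 10 endothelial ones and 2 of 14 keratocyte ones were lower in KO. Summed corneal epithelium markers were 2212, 673, 60.7, 261 and 4255 CPM in KO 1 to KO 5, against 59.6 to 225 CPM in WT. Of 14 tested epithelial markers 11 were higher in KO in edgeR, while DESeq2 called 13 and limma-voom 2. Ly6d was at or near 0 in every library. KO 1, KO 2 and KO 5 thus held more epithelial RNA than any WT library, while KO 3 lay within the WT range and KO 4 just above it. For this reason a fit that kept only KO 3 and KO 4 of the KO libraries, and another with the epithelial markers as covariate, both added after the data had been seen, are given beside each called member, and for other genes beside the calls that they end. The fit with 2 KO libraries has less power, and it called 5.99% of the genes it tested, while the epithelial covariate fit called 6.92%. Since the epithelial markers themselves differ with genotype, that covariate can also take up a change that goes with genotype. A call lost there therefore does not assign the change to epithelial RNA. Macrophage markers summed to 347 to 549 CPM in KO and 275 to 432 CPM in WT, and 0 of 12 passed the test in edgeR (3 at an unadjusted p under 0.05, median log2 fold change 0.22), while DESeq2 called 2 and limma-voom 0. Schwann cell markers summed to 79.5 to 113 CPM in KO and 56.7 to 64.9 CPM in WT, with 4 of 5 higher in KO. Vascular endothelium markers summed to 92.9 to 114 CPM in KO and 113 to 162 CPM in WT, a sum led by Kdr, which was lower in KO, while 6 of the 7 tested had a log2 fold change above 0 (median 0.95, 2 called higher and 1 lower). Red blood cell markers summed to 4.19 to 27.1 CPM in KO and 16.3 to 87.6 CPM in WT. In bulk RNA, more cells of a type and more RNA of a gene per cell cannot be told apart.

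The core of the antioxidant response element, the DNA word that NRF2 with a small MAF protein is known to bind, can be written TGACNNNGC. It was searched on both strands in RefSeq windows from 250 bases before to 50 bases after gene starts (GRCm38.p6), where it was found in 27.9% of the 43 members with a window (12 genes) and in 14% of all 27025 genes. At this length and degeneracy the word is common, and a match describes the letters and no more. Of the 12 members, 2 were called, G6pdx and Pgd. Hmox1 and Gsta4, which were also called, had no window and were not searched. The same holds for Gclc, Gsr, Abcc1, Prdx6, Msra and Sod3. The stricter word TGACTCAGC, which holds the AP-1 word TGACTCA, was found in 3 members, Prdx1, Mt2 and Me1, and in 0.503% of all genes. None of these 3 was called by edgeR. The stretches below are shown because they carry the word in the called members, in the 3 members with the stricter word, and in Nfe2l2 and Gclm, the gene of NRF2 itself and a textbook target. Each is written 5′ to 3′ on the strand of its gene, with the word in capitals; where the word lies on the opposite strand, its reverse complement GCNNNGTCA is what is read.
G6pdx (chrX:74428919-74428947, minus strand): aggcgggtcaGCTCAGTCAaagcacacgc
Pgd, at an alternative start (chr4:149166061-149166089, minus strand): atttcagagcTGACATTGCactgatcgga
Prdx1 (chr4:116685456-116685484, plus strand): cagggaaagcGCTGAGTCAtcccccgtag
Mt2 (chr8:94172529-94172557, plus strand): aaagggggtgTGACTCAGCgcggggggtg
Me1 (chr9:86695902-86695930, minus strand): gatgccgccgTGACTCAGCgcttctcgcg
Gclm (chr3:122245413-122245441, plus strand): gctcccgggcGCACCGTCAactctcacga
Nfe2l2 (chr2:75704885-75704913, minus strand): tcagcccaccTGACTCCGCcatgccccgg

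None of the 3 regulators was called by edgeR, DESeq2 or limma-voom, and 0 had an unadjusted p under 0.05 in edgeR. Nfe2l2 was 101, 107, 102, 106 and 101 CPM in the KO libraries and 104, 101, 111, 123 and 117 CPM in the WT libraries. These ranges overlap, and the log2 fold change was -0.10 (SE 0.06, interval -0.23 to 0.03). Keap1 averaged 61.4 ± 2.08 CPM in KO and 61.2 ± 1.99 CPM in WT (SD, n = 5 each), with a log2 fold change of 0.01 and an interval of -0.09 to 0.10. Osgin1, an oxidative stress induced growth inhibitor, averaged 9.65 ± 1.53 CPM in KO and 9.74 ± 1.85 CPM in WT (SD, n = 5 each). Among 11 other regulators and partners of the pathway 1 was called (9.09%, beside 15.3% of all genes tested). This was Mafg, which encodes a small MAF partner of NRF2 and fell. It was 24.5 to 28.4 CPM in KO and 26.5 to 35.3 CPM in WT (log2 fold change -0.31, SE 0.08, edgeR adjusted p = 0.018). WT 1, at 26.5 CPM, was the one WT library inside the KO range. In the fits that take account of the epithelial markers Mafg was not called: the log2 fold change was -0.24 with KO 3 and KO 4 alone (adjusted p = 0.24) and -0.25 with the epithelial covariate (adjusted p = 0.14).

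The glutathione group supplies and uses the tripeptide that reduces peroxides and tags electrophiles for export. Of its 15 members 2 rose, Gpx1 and Gsta4, and 13 did not pass, with a median log2 fold change of 0.09. Gpx1, the cytosolic glutathione peroxidase that reduces hydrogen peroxide, was 216, 210.4, 243, 245 and 245 CPM in the KO libraries and 175, 152, 142, 163 and 163 CPM in the WT libraries. Every KO library lay above every WT library. Gpx1 rose 1.46-fold, a log2 fold change of 0.54 (SE 0.07, edgeR adjusted p = 0.00051). The log2 fold change was as large with KO 3 and KO 4 alone (0.62, adjusted p = 0.0024) and with the epithelial covariate (0.59, adjusted p = 0.0016). Gpx1 is on the plus strand of chromosome 9, at 108338903 to 108340343 (GRCm38). Its paralogues did not pass the test. Gpx4, which reduces lipid hydroperoxides in membranes, averaged 237 ± 17.3 CPM in KO and 236 ± 14.2 CPM in WT (SD, n = 5 each; log2 fold change 0.01, interval -0.13 to 0.15). Gpx7 (0.18) and Gpx8 (0.08), are peroxidases of the endoplasmic reticulum. Gpx4 shares 37.6% of its 36-base words with other genes in the annotation, so part of its count may depend on how reads with several matches were treated.

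Gsta4, a glutathione transferase known for clearing the lipid peroxidation product 4-hydroxynonenal, had the largest fitted fold change of the members and the most uneven one. It was 197, 138, 57.5, 75.2 and 315 CPM in KO 1 to KO 5, and 72.5, 76.0, 69.2, 58.6 and 57.2 CPM in WT 1 to WT 5. KO 1, KO 2 and KO 5 were high, whereas KO 3 and KO 4 lay in or beside the WT range of 57.2 to 76.0 CPM. The log2 fold change was 1.23 (SE 0.37, edgeR adjusted p = 0.043). With KO 3 and KO 4 alone it was 0.00 (adjusted p = 1.0), and with the epithelial covariate it was 0.07 (adjusted p = 0.85). Gsta4 lost its call when any one of the WT libraries, or KO 1, KO 2 or KO 5, was left out. The order of the KO libraries in Gsta4 was that of their summed epithelial markers. The part of epithelial RNA in the rise was not tested beyond these fits. Gsta3, a related transferase, averaged 22.6 ± 10.7 CPM in KO and 13.3 ± 3.87 CPM in WT (SD, n = 5 each) and did not pass (adjusted p = 0.11). It was also highest in KO 2, KO 5 and KO 1, at 35.9, 31.4 and 20.2 CPM.

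The enzymes of glutathione synthesis and recycling, which are among the most used read-outs of NRF2, did not pass the test. Gclc, the catalytic subunit of glutamate-cysteine ligase, averaged 20.9 ± 0.849 CPM in KO and 22.5 ± 1.89 CPM in WT (SD, n = 5 each; log2 fold change -0.10, interval -0.24 to 0.04). Gclm, its modifier subunit, averaged 56.9 ± 3.85 CPM in KO and 52.5 ± 2.79 CPM in WT (log2 fold change 0.12, interval -0.01 to 0.24). Gclm shares 244 exonic bases with the transcribed pseudogene Gm6061 on the same strand, where reads of both genes cannot be separated. Over all libraries Gm6061 had 39905 counts, beside 23964 for Gclm. Of the words of Gclm, counted as for Gpx4 above, 4.99% occur in other genes and 3.47% in Ppia, which had 262321 counts. The Gclm values above include any such shared reads, and their part in the Gclm count was not tested. Gsr, glutathione reductase, averaged 13.1 ± 1.12 CPM in KO and 12.3 ± 0.628 CPM in WT (log2 fold change 0.09, interval -0.07 to 0.25). Gpx3, a secreted peroxidase, was the scarcest member, at 3.27, 3.43, 4.65, 2.90 and 3.84 CPM in KO and 1.96, 0.447, 0.911, 2.12 and 3.69 CPM in WT, and it did not pass (adjusted p = 0.12), with similar estimates and no call from KO 3 and KO 4 alone (log2 fold change 1.05, adjusted p = 0.31). Abcc1, which exports glutathione conjugates, was 36.8 to 57.1 CPM in KO and 55.8 to 63.0 CPM in WT (log2 fold change -0.29, adjusted p = 0.063), and Gstp1 was 70.1 to 90.6 CPM in KO and 83.9 to 101 CPM in WT (-0.20, adjusted p = 0.081).

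**Figure D2:**
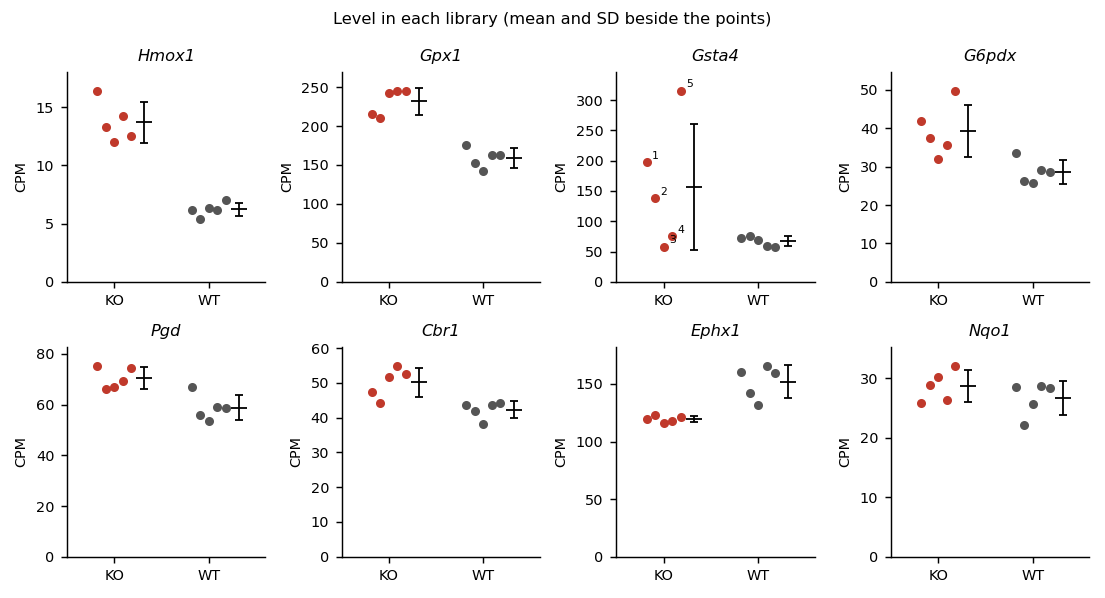
CPM of Nqo1 and of the 7 members that passed the test, one panel each, with 1 point per library and the mean and SD of each genotype (KO left, WT right, n = 5 each). The Hmox1, Gpx1 and Ephx1 panels show no overlap between genotypes, the Gsta4 panel shows 3 high KO libraries up to 315 CPM, and the Nqo1 panel shows overlapping groups.

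Among 29 tested genes of glutathione metabolism that are not members, 4 rose, 7 fell and 18 did not pass. The share called was 37.93%, beside 15.3% of all genes tested. The lists of other genes were chosen with earlier results of these data known. Slc3a2, the heavy chain of the cystine transporter and of other amino acid transporters, was 606, 483, 690, 765 and 511 CPM in KO and 329, 391, 364, 367 and 382 CPM in WT. No KO library overlapped a WT library, and the log2 fold change was 0.74 (SE 0.12, edgeR adjusted p = 0.0017), and 0.99 with KO 3 and KO 4 alone (adjusted p = 0.00015). Slc7a11, the light chain that makes this transporter specific for cystine and an NRF2 and ATF4 target, was scarce, at 1.09 to 1.63 CPM in KO and 0.66 to 1.20 CPM in WT (0.61, SE 0.19, edgeR adjusted p = 0.044). With KO 3 and KO 4 alone Slc7a11 had a log2 fold change of 0.78 (adjusted p = 0.11). Ggt7, of the gamma-glutamyltransferase family, averaged 10.2 ± 0.701 CPM in KO and 7.25 ± 1.25 CPM in WT (SD, n = 5 each; log2 fold change 0.49, edgeR adjusted p = 0.014), and was not called with KO 3 and KO 4 alone (0.54, adjusted p = 0.066). Abcc5, an organic anion exporter, averaged 28.0 ± 4.13 CPM in KO and 43.7 ± 9.2 CPM in WT (log2 fold change -0.64, edgeR adjusted p = 0.012). Abcc5 was called neither with KO 3 and KO 4 alone (-0.60, adjusted p = 0.084) nor with the epithelial covariate (-0.64, adjusted p = 0.052).

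The other 7 calls were glutathione transferases, which attach glutathione to reactive compounds. The members and the other listed genes hold 16 whose symbol starts with Gst, a grouping made after their values were seen, of which 15 were tested. Of these 2 rose (Gsta2 and Gsta4), 6 fell and 7 did not pass, beside 7.59% of all genes tested that rose and 7.73% that fell, with a median log2 fold change of -0.11. The microsomal transferases Mgst1 (-0.02), Mgst2 (0.04) and Mgst3 (0.56) did not pass. The lower ones were Gstm2 (-0.40), Gstk1 (-0.46), Gstm7 (-0.28), Gstt2 (-0.28), Gstz1 (-0.27) and Gstt1 (-0.18). Gstm2, of the mu class, was 70.0, 75.3, 68.2, 65.6 and 70.0 CPM in KO and 104, 85.0, 81.1, 92.0 and 97.9 CPM in WT. No library overlapped, and Gstm2 was also lower with KO 3 and KO 4 alone (-0.46, edgeR adjusted p = 0.025). Gstz1, which also acts in tyrosine breakdown, averaged 48.0 ± 2.05 CPM in KO and 58.0 ± 3.54 CPM in WT (SD, n = 5 each; edgeR adjusted p = 0.0062). With KO 3 and KO 4 alone 1 of the 6, Gstm2, passed the test, and Gstm2 was also the one of the 6 called with the epithelial covariate. All 6 had a log2 fold change below 0 with KO 3 and KO 4 alone. These libraries are part of the full fit by which the 6 were picked, so the shared sign is no separate check. The higher ones followed the epithelial libraries: Gsta2 was 1.81, 1.47, 0.0435, 0.322 and 4.97 CPM in KO and at most 0.342 CPM in WT, and its fold change rests on those few counts. Gsta2 was called neither with KO 3 and KO 4 alone (0.12, adjusted p = 0.96) nor with the epithelial covariate (0.03, adjusted p = 0.99). It also shares 57.8% of its 36-base words with other genes. Gsto1, an abundant omega-class transferase, was 1421, 1125, 88.5, 301 and 2323 CPM in KO and 119 to 407 CPM in WT, and did not pass (log2 fold change 2.06, adjusted p = 0.058). Gsto1 had a log2 fold change of -0.36 with KO 3 and KO 4 alone.

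**Figure D3:**
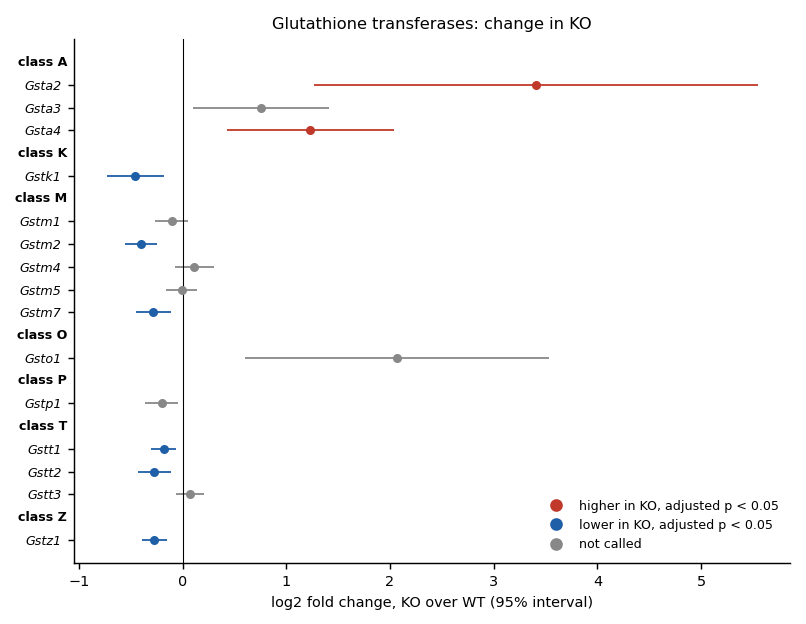
Log2 fold change (KO over WT, horizontal axis) with its 95% interval of the 15 tested genes whose symbol starts with Gst, grouped by class, with those that passed the test in colour. The wide intervals at the right belong to Gsta2, Gsta3, Gsta4 and Gsto1, and the 6 lower ones lie between -0.46 (Gstk1) and -0.18 (Gstt1).

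The thioredoxin group reduces disulfides and peroxides through thioredoxin, peroxiredoxins and their repair enzymes, at the expense of NADPH. None of its 13 members was called by edgeR, and 11 had a log2 fold change above 0, with a median of 0.08. At an unadjusted p under 0.05 edgeR counted 5 of them, while DESeq2 called 2 after adjustment and limma-voom called 0. Txnrd1, the cytosolic thioredoxin reductase and a standard NRF2 target, was 57.2, 62.1, 58.9, 53.8 and 52.6 CPM in KO and 56.5, 60.3, 69.9, 61.2 and 61.3 CPM in WT. The ranges overlap, and the log2 fold change was -0.12 (SE 0.07, interval -0.26 to 0.03). Srxn1, the sulfiredoxin that restores overoxidised peroxiredoxins and another standard target, averaged 30.4 ± 2.21 CPM in KO and 28.7 ± 1.94 CPM in WT (SD, n = 5 each; log2 fold change 0.08, interval -0.06 to 0.23).

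Prdx1 and Prdx4 were the thioredoxin members nearest to the threshold. Prdx1, a cytosolic peroxiredoxin whose upstream stretch with the stricter word is shown above, was 360, 358, 352, 384 and 410 CPM in KO and 366, 314, 310, 321 and 316 CPM in WT. WT 1 was the one WT library inside the KO range. The log2 fold change was 0.20 (SE 0.07, edgeR adjusted p = 0.064). Prdx4, the peroxiredoxin of the endoplasmic reticulum, averaged 34.1 ± 4.19 CPM in KO and 28.5 ± 2.35 CPM in WT (0.26, SE 0.09, edgeR adjusted p = 0.067). Both passed with DESeq2, which called 20.2% of all genes, and with libraries scaled by total counts, where 14.7% were called. Prdx6, which has glutathione peroxidase and phospholipase activity, was 202 to 238 CPM in KO and 203 to 264 CPM in WT (-0.13). Mitochondrial members, Prdx3 (0.01), Prdx5 (0.19), Txn2 (0.08) and Txnrd2 (0.18), did not pass. Of 10 other thioredoxin genes 1 was called (10%, beside 15.3% of all genes tested). This was Txndc12, a thioredoxin-like protein of the endoplasmic reticulum, which rose. It was 51.8 to 59.3 CPM in KO and 41.8 to 47.5 CPM in WT, without overlap (0.30, SE 0.06, edgeR adjusted p = 0.0045).

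Enzymes that remove superoxide and hydrogen peroxide were called in 0 of 5 cases by edgeR, DESeq2 and limma-voom, and 1 of them, Sod2, had an unadjusted p under 0.05 in edgeR. Sod3, the extracellular superoxide dismutase and the most abundant of them by CPM and per kilobase, averaged 531 ± 25.6 CPM in KO and 531 ± 89.0 CPM in WT (SD, n = 5 each; log2 fold change -0.00, interval -0.23 to 0.23). Sod1, the cytosolic copper-zinc enzyme, averaged 146 ± 10.5 CPM in KO and 143 ± 12.4 CPM in WT. Sod2, the mitochondrial manganese enzyme, averaged 60.1 ± 2.42 CPM in KO and 55.0 ± 2.59 CPM in WT (0.13, SE 0.05, edgeR adjusted p = 0.11), and 24.8% of its 36-base words occur in other genes. The intervals of all of these lay within 1.5-fold of no change. Cat, catalase, averaged 45.3 ± 2.73 CPM in KO and 47.6 ± 2.58 CPM in WT (-0.07), and Park7, a redox-sensitive chaperone that stabilises NRF2, was 105 to 122 CPM in KO and 92.9 to 115 CPM in WT (0.12). Of 6 other genes of this role 1 rose and 1 fell (33.33% called, beside 15.3% of all genes tested). Oxr1, oxidation resistance 1, was 87.5 to 98.4 CPM in KO and 107 to 130.5 CPM in WT without overlap (-0.34, SE 0.06, edgeR adjusted p = 0.0045), and with KO 3 and KO 4 alone it was also lower (-0.34, adjusted p = 0.047). Duox1, a hydrogen peroxide producing oxidase of epithelia, averaged 4.89 ± 1.14 CPM in KO and 2.62 ± 0.851 CPM in WT (0.90, edgeR adjusted p = 0.02), and was called neither with KO 3 and KO 4 alone (0.57, adjusted p = 0.27) nor with the epithelial covariate (0.63, adjusted p = 0.16).

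In the iron, heme and metal group, Hmox1 rose and the other 5 members did not pass. Hmox1, heme oxygenase 1, breaks heme down to biliverdin, carbon monoxide and iron, and is a target of both NRF2 and the heme-sensing repressor BACH1. It was 16.4, 13.3, 12.0, 14.3 and 12.6 CPM in the KO libraries and 6.13, 5.41, 6.31, 6.18 and 7.07 CPM in the WT libraries. The KO libraries all lay above the WT libraries, and the lowest KO value was 12.0 CPM against a highest WT value of 7.07 CPM. Hmox1 rose 2.20-fold, a log2 fold change of 1.14 (SE 0.10, edgeR adjusted p = 2.7e-05). It was 1.08 with KO 3 and KO 4 alone (adjusted p = 0.00055) and 1.10 with the epithelial covariate (adjusted p = 0.00032). Macrophages express Hmox1 strongly when they take up heme, and the range of their summed markers in each genotype is given above. The log2 fold change of Hmox1 with the macrophage markers as covariate was 1.15 (adjusted p = 8.2e-05). This covariate follows the level of the markers and not the uptake of heme, and the part of macrophages in the rise was not tested. Hmox1 is on the plus strand of chromosome 8, at 75093621 to 75100589.

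Ferritin and the metallothioneins did not pass the test. Fth1, the ferritin heavy chain that oxidises iron for storage, was 888, 1042, 816, 860.1 and 1114 CPM in KO and 1098, 824, 839, 973 and 902 CPM in WT (log2 fold change 0.03, interval -0.20 to 0.26). Ftl1, the light chain, averaged 459 ± 32.4 CPM in KO and 498 ± 28.5 CPM in WT (SD, n = 5 each; -0.12, interval -0.26 to 0.03), and 55.9% of its 36-base words occur in other genes. Both groups overlapped for each chain. Mt1 and Mt2, the zinc- and copper-binding metallothioneins, had log2 fold changes of -0.07 and 0.04. Blvrb, biliverdin reductase B, averaged 11.3 ± 1.12 CPM in KO and 13.0 ± 0.97 CPM in WT (-0.20, edgeR adjusted p = 0.12). Of 12 other genes of this role 2 rose and 1 fell (25% called, beside 15.3% of all genes tested). Slc40a1, ferroportin, the iron exporter and an NRF2 target, was 34.3 to 39.7 CPM in KO and 24.0 to 31.5 CPM in WT without overlap (0.39, SE 0.07, edgeR adjusted p = 0.0041), and was not called with KO 3 and KO 4 alone (0.35, adjusted p = 0.062). Aco1, a cytosolic aconitase that also senses iron, averaged 42.5 ± 1.41 CPM in KO and 37.9 ± 2.12 CPM in WT (0.17, edgeR adjusted p = 0.044), and Mt3 averaged 5.46 ± 0.351 CPM in KO and 7.00 ± 0.998 CPM in WT (-0.36, edgeR adjusted p = 0.041). Neither was called with KO 3 and KO 4 alone (Aco1 0.20, adjusted p = 0.17; Mt3 -0.36, adjusted p = 0.2), nor with the epithelial covariate (Aco1 0.21, adjusted p = 0.086; Mt3 -0.42, adjusted p = 0.084).

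The NADPH group covers pathways that make the reducing power that glutathione reductase and thioredoxin reductase spend, and 2 of its 5 members rose. These were G6pdx and Pgd, the first and the third enzymes of the oxidative pentose phosphate branch, each of which yields NADPH. G6pdx, glucose-6-phosphate dehydrogenase, was 41.9, 37.4, 32.0, 35.7 and 49.7 CPM in KO and 33.5, 26.2, 25.8, 29.1 and 28.5 CPM in WT. KO 3 lay below WT 1, and the other KO libraries lay above every WT library. The log2 fold change was 0.46 (SE 0.11, edgeR adjusted p = 0.017). Pgd, 6-phosphogluconate dehydrogenase, was 75.2, 66.1, 66.9, 69.4 and 74.6 CPM in KO and 66.9, 56.0, 53.4, 59.1 and 58.6 CPM in WT (0.26, SE 0.07, edgeR adjusted p = 0.021). Here WT 1 was the one WT library that reached the KO range, and Pgd was not called without WT 2, WT 3, WT 5 or KO 1. Both were highest in KO 1 and KO 5, which held the most epithelial RNA. With KO 3 and KO 4 alone the log2 fold changes were 0.25 for G6pdx (adjusted p = 0.22) and 0.22 for Pgd (adjusted p = 0.18), and with the epithelial covariate 0.26 (adjusted p = 0.2) and 0.21 (adjusted p = 0.15). The share of epithelial RNA in these rises was not tested beyond these fits. G6pdx overlaps 418 exonic bases of Ikbkg on the opposite strand, whose log2 fold change was 0.01 (edgeR adjusted p = 0.88), and counts at nested genes on opposite strands showed that reads were assigned by strand. Of the called members that had a window, G6pdx alone held the word before its start. The 250 bases before its RefSeq start (GRCm38.p6, chrX:74428881-74429130, minus strand) are therefore shown, with the word in capitals.
G6pdx: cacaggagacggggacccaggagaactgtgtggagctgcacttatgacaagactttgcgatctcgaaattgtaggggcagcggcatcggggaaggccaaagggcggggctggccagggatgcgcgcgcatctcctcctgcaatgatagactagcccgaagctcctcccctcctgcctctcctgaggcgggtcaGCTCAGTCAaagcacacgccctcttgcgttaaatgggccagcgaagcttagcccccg

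The other 3 members of the NADPH group did not pass. These were Taldo1 and Tkt, of the non-oxidative pentose phosphate branch, and Me1. Taldo1, transaldolase, averaged 147 ± 11.9 CPM in KO and 131 ± 8.37 CPM in WT (SD, n = 5 each; log2 fold change 0.17, edgeR adjusted p = 0.11). Tkt, transketolase, which is also known as an abundant soluble protein of the cornea, averaged 2653 ± 127 CPM in KO and 2894 ± 298 CPM in WT (-0.13, edgeR adjusted p = 0.3). Me1, the cytosolic malic enzyme, averaged 70.7 ± 2.6 CPM in KO and 68.2 ± 5.76 CPM in WT (0.05, interval -0.08 to 0.19). Of 15 other NADPH identifiers, which count Nnt under both of its own, 2 rose and 2 fell (26.67% called, beside 15.3% of all genes tested). Aldh1l1, the cytosolic folate enzyme that makes NADPH, was 15.8 to 22.0 CPM in KO and 11.2 to 13.2 CPM in WT (0.58, SE 0.09, edgeR adjusted p = 0.0014), and Mthfd2, a mitochondrial folate enzyme, averaged 8.31 ± 0.629 CPM in KO and 5.60 ± 0.983 CPM in WT (0.57, SE 0.12, edgeR adjusted p = 0.0076). Neither had overlapping groups, and Mthfd2 was not called with KO 3 and KO 4 alone (0.51, adjusted p = 0.1). Idh2, the NADP-dependent mitochondrial isocitrate dehydrogenase, was 45.9, 49.0, 56.1, 52.2 and 56.0 CPM in KO and 68.8, 70.5, 65.8, 61.7 and 67.4 CPM in WT (-0.37, SE 0.06, edgeR adjusted p = 0.0031). Every KO library lay below every WT library, and the log2 fold change with KO 3 and KO 4 alone was -0.30 (adjusted p = 0.036). Nnt, the mitochondrial transhydrogenase, is listed under a pair of overlapping identifiers, of which one passed (-0.36, edgeR adjusted p = 0.047) and the other did not (-0.35, edgeR adjusted p = 0.051). Neither identifier was called with KO 3 and KO 4 alone (-0.18 and -0.17) or with the epithelial covariate (-0.21 and -0.20).

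Of the 4 members that act on quinones, carbonyls and xenobiotics, Cbr1 rose, Ephx1 fell, and Nqo1 and Aox1 did not pass. Nqo1, the quinone reductase most often used as a marker of NRF2 activity, was 25.9, 29.0, 30.3, 26.3 and 32.1 CPM in KO and 28.6, 22.1, 25.8, 28.7 and 28.3 CPM in WT. The groups overlap over most of their range, and the log2 fold change was 0.11 (SE 0.08, interval -0.08 to 0.29). Cbr1, a carbonyl reductase, was 47.4, 44.2, 51.8, 54.9 and 52.5 CPM in KO and 43.6, 42.0, 38.2, 43.6 and 44.3 CPM in WT (0.24, SE 0.07, edgeR adjusted p = 0.029). KO 2 was the one KO library inside the WT range, and with KO 3 and KO 4 alone the value was 0.34 (adjusted p = 0.029). With the epithelial covariate Cbr1 was not called (0.29, adjusted p = 0.056). Leaving out KO 3, KO 4, KO 5, WT 2 or WT 3 ended the call of Cbr1. Ephx1, the microsomal epoxide hydrolase and also a known NRF2 target in mouse liver, was 119, 123, 116, 118 and 122 CPM in KO and 160.4, 142, 132, 166 and 159 CPM in WT. The KO libraries lay close together and below every WT library. The log2 fold change was -0.34 (SE 0.07, edgeR adjusted p = 0.0051), and it was -0.37 with KO 3 and KO 4 alone (adjusted p = 0.054) and -0.33 with the epithelial covariate (adjusted p = 0.041). Ephx1 thus moved in the opposite direction to Hmox1 and Cbr1.

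Of 20 other genes of this role 3 rose, and edgeR called 0 lower, a share called of 15% beside 15.3% of all genes tested. Cbr3, a carbonyl reductase beside Cbr1 on chromosome 16, was 13.0, 14.1, 13.6, 18.6 and 16.2 CPM in KO and 10.7, 8.27, 8.15, 11.8 and 9.78 CPM in WT, without overlap (log2 fold change 0.63, SE 0.12, edgeR adjusted p = 0.0058). It was 0.73 with KO 3 and KO 4 alone (adjusted p = 0.027). Ptgr1, a prostaglandin reductase, averaged 19.0 ± 12.4 CPM in KO and 7.74 ± 1.03 CPM in WT (SD, n = 5 each; 1.29, edgeR adjusted p = 0.031), and was called neither with KO 3 and KO 4 alone (0.21, adjusted p = 0.45) nor with the epithelial covariate (0.23, adjusted p = 0.51). Ces1d, a carboxylesterase, rose with a wide spread, at 3.04 ± 4.35 CPM in KO and 0.188 ± 0.137 CPM in WT, and was -0.46 with KO 3 and KO 4 alone (adjusted p = 0.81) and -0.63 with the epithelial covariate (adjusted p = 0.61). Aldh3a1, the corneal aldehyde dehydrogenase, named after its values were seen, was the most abundant gene of this role by CPM, at 4752 to 6240 CPM in KO and 3704 to 5164 CPM in WT, and did not pass (0.29, SE 0.11, edgeR adjusted p = 0.11). Over all roles, 103 identifiers of pathway genes that are not members were tested, Nnt being counted under both of its own. Of these 13 were higher, 12 lower and 78 not called. The share called was 24.27%, beside 15.3% of all genes tested, and the median log2 fold change was 0.06. Without WT 3 there were 7 higher, and without WT 5 there were 8 higher and 6 lower.

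**Figure D4:**
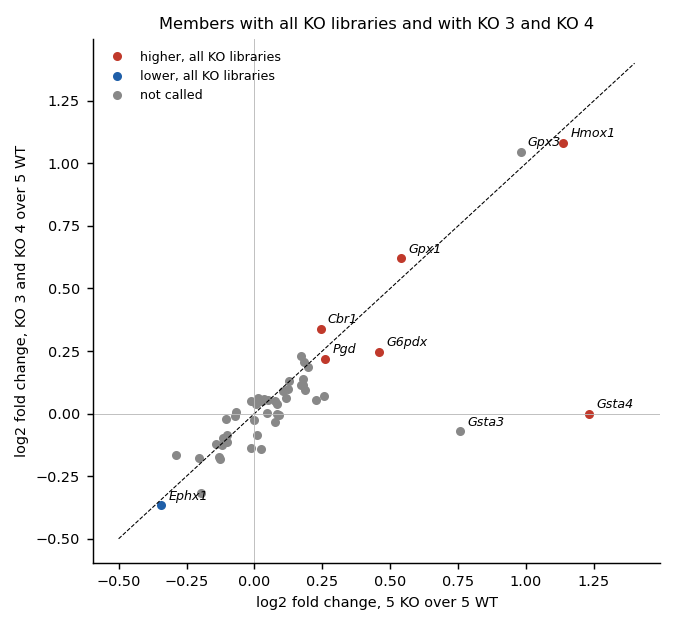
Log2 fold change of each of the 51 members with all 5 KO libraries over WT (horizontal axis) against that with KO 3 and KO 4 alone over WT (vertical axis), with a dashed line of equality. Hmox1 (1.14 and 1.08) and Gpx1 (0.54 and 0.62) lie near the line, while Gsta4 (1.23 and 0.00) and Gsta3 (0.76 and -0.07) lie far below it.

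Levels between genes were compared as CPM per kilobase of exon, which corrects for the length of the annotated exons. The order in WT was led by Tkt at 394 CPM per kilobase (361 in KO) and Ftl1 at 372 (343 in KO), whose WT ranges overlap. Next came Fth1 at 267 (272 in KO) and Mt2 at 178 (183 in KO), then Prdx5, Sod3 and Gpx4. Gpx1 was at 161 CPM per kilobase in KO and 110.5 in WT, which placed it 10th in WT. Hmox1 was at 7.82 CPM per kilobase in KO and 3.55 in WT, 44th of the 51, and the member with the clearest rise was thus one of the scarcer ones. Gpx3 was lowest, at 2.00 CPM per kilobase in KO and 1.01 in WT. Summed by role, NADPH members were at 2980 ± 141 CPM in KO and 3181 ± 311 CPM in WT, thioredoxin members at 1620 ± 93.2 CPM in KO and 1526 ± 99.8 CPM in WT, and glutathione members at 1207 ± 134 CPM in KO and 1051 ± 49.4 CPM in WT (SD, n = 5 each). Tkt made up most of the NADPH sum, at 2653 CPM in KO and 2894 CPM in WT, while 4 of the 5 members had a log2 fold change above 0. The glutathione sum includes Gpx1 (232 CPM in KO, 159 CPM in WT) and Gsta4 (157 CPM in KO, 66.7 CPM in WT). All members together summed to 8731 ± 518 CPM in KO and 8718 ± 693 CPM in WT.

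**Figure D5:**
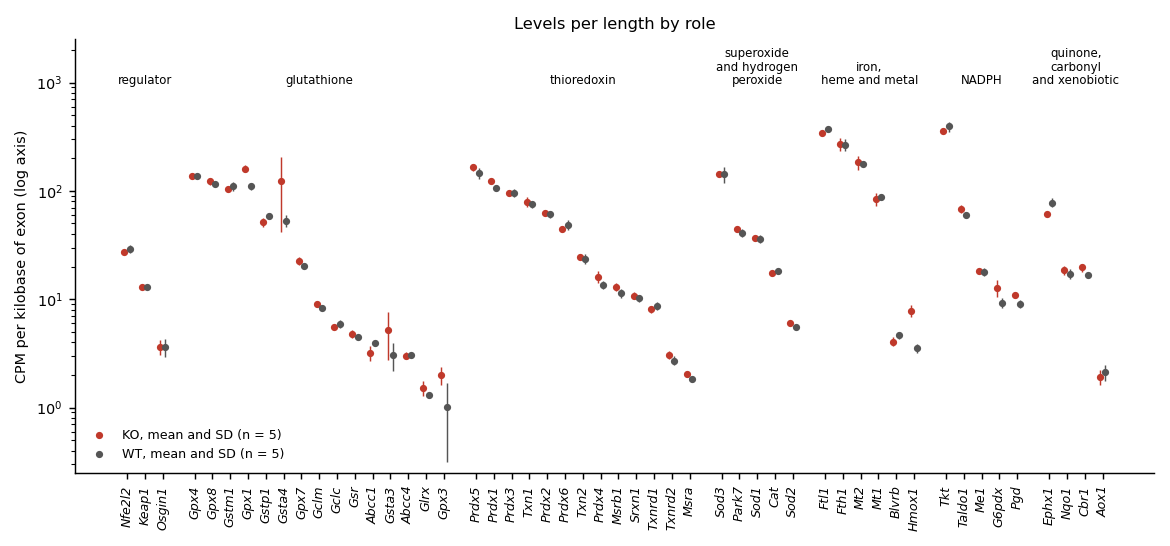
CPM per kilobase of exon (log axis) of the 51 members grouped by role, as mean and SD of 5 KO and 5 WT libraries. KO and WT points lie close together over a range from Tkt at 361 in KO and 394 in WT to Gpx3 at 2.00 in KO and 1.01 in WT, with Hmox1 and Gpx1 visibly higher in KO.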

How the data were processed

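The authors deposited 1 table of raw read counts per gene and library, all whole numbers, with library totals that differ. Per the labels' protocols, libraries were made from 100 ng of RNA (RNA integrity number over 7) with a stranded polyadenylated RNA kit and 12 PCR cycles, and sequenced in paired-end mode. Reads were aligned to GRCm38.p6, with HISAT2 2.1.0, Subread 1.6.4 (featureCounts), cutadapt 2.4 and Trim Galore 0.6.4 named in the submitters' processing notes. The sources used here give neither the strand setting nor the treatment of reads with several matches. Genes nested in a host on the opposite strand had a median of 0.064% of the host's count per base (80 pairs), and those on the same strand 107.9% (24 pairs), so counting was by strand and overlapping genes of 1 strand both received their shared reads.

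Identifiers were matched to GENCODE vM21 (55450 of 55450). Groups came from the genotype label. edgeR 4.0.16 in R 4.3.3 kept genes with filterByExpr (minimum count 10, minimum total 15), scaled libraries by TMM, and compared KO with WT by the quasi-likelihood F test without covariates, with Benjamini-Hochberg adjustment over 17729 genes. Standard errors and 95% intervals come from this model, and CPM from edgeR's cpm with TMM-scaled sizes. The common biological coefficient of variation was 16.3%. Without molecular identifiers, reads do not count independent molecules, and nothing in the labels says that pools of a genotype came from separate litters, so p-values measure the spread between these pools. The script was tested on simulated counts. CPM per kilobase uses the union of annotated exons, which lowers genes with long, rarely used exons.

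The members, the lists of other pathway genes and markers, and the tests were chosen with earlier results of these data known. Names were given to members, to Slc4a11, and to the 2 called other genes of smallest p per role and direction. Slc7a11, Abcc5, Ces1d, Gsta2, Gsto1, Gstk1, Gstm7, Gstt1, Gstt2 and Aldh3a1 were named after their values were seen. Shared 36-base words between transcripts were counted in the annotation, and 35 of 51 members had at most 2% of them in other genes, while 9 had at least 10%. Sequences are RefSeq's. Alternatives were DESeq2 1.42.0, limma-voom (limma 3.58.1), other scalings and filters, the replicate number as a block, a threshold of 0.01, and each library left out. KO 3 and KO 4 alone, and covariates for epithelial, keratocyte and macrophage markers and for Y-linked Ddx3y, were chosen after seeing the data. Ddx3y was 17.7 to 78.9 CPM in KO and 22.7 to 93.3 CPM in WT, so Y-linked RNA differed widely between pools of both genotypes. The part of sex was not tested beyond this covariate.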

Additional observations from a re-analysis of the deposited data

Results flagged for a closer look

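In 10 of 102 groups of 5 libraries (51 members in each genotype), 1 library stood apart from the other 4 by Dixon's criterion, where chance gives about 1 group in 20. Of these 6 were KO 5, which was the highest KO library for each. Txn1 was 99 CPM in KO 5 and 76.9 to 82.5 CPM in the other KO libraries. Txn2 was 113 CPM there, against 100 to 103 CPM in the others. Prdx2 was 215 CPM, against 184 to 187 CPM, and Prdx6 was 238 CPM, against 202 to 211 CPM. Park7 was 122 CPM, against 105 to 110 CPM, and Gpx8 was 144 CPM, against 121 to 127 CPM. KO 5 also had the highest summed epithelial markers, and their part in these values was not tested.

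The other 4 were spread over libraries. Gclc was 22.4 CPM in KO 1 and 20.4 to 20.8 CPM in the other KO libraries. Gsr was 11.2 CPM in KO 4, against 13.2 to 14 CPM in the others. Prdx1 was 366 CPM in WT 1 and 310 to 321 CPM in the other WT libraries. Gclm was 47.7 CPM in WT 2, against 52.8 to 54.6 CPM in the others.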

How the results depend on the processing

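Hmox1 and Gpx1 were called in all 23 alternatives that kept the threshold and at 0.01 as well, with log2 fold changes of 1.07 to 1.19 and 0.50 to 0.62. Ephx1 was called in 22, missing only with KO 3 and KO 4 alone, G6pdx in 21, Pgd in 17, Cbr1 in 15 and Gsta4 in 8. Of the called genes named here, Gsta4 reversed with KO 3 and KO 4 alone (-0.000894), and Ces1d with KO 3 and KO 4 alone (-0.457) and with the epithelial covariate (-0.63). Gene by gene over members and named genes, 1519 results kept direction and side of the threshold, 66 were uncalled in both fits with the other sign (such as Gsto1 and Gsta3 with KO 3 and KO 4 alone), 182 lost the call and 22 gained one.

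With KO 3 and KO 4 alone, 1105 of all genes were called against 2716, with 3 members higher, 0 lower, and 7 other pathway genes higher and 3 lower. With the epithelial covariate 1226 genes were called, 2 members were higher and 3 other genes lower. At 0.01 the counts were 1024 genes, 2 members higher, and 6 other genes higher and 4 lower. DESeq2 called 20.2% of genes, 11 members with 3 lower (adding Prdx1, Prdx4, Abcc1 and Gstp1) and 20 other genes higher. Total counts, which moved the median of all genes to 0.03, gave 9 members (adding Prdx1 and Prdx4) and 7 other genes lower. The macrophage covariate gave 2 members lower and 8 other genes higher, and the Ddx3y covariate 2 members lower. Gsta4 lost its call with either of these covariates.

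Replicate numbers do not pair the libraries (correlations of same-numbered deviations -0.42 to 0.09). With the replicate block 1691 genes (9.54%) and 5 members were called, without Gsta4 and Cbr1.

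With 1 library left out, 1815 to 3094 genes, 3 to 7 members higher, 1 to 2 lower, 7 to 16 other genes higher and 6 to 11 lower were called. Members higher were 3 without WT 2 or WT 3, which lost Gsta4, Pgd and Cbr1, and lower ones 2 without KO 3 (Abcc1) or KO 5 (Gstp1). Other genes higher were 7 without WT 3 and 8 without WT 2 or WT 5, and lower ones 6 without WT 5 and 7 without KO 1 or KO 2. Gpx3 passed without WT 5 and Gsta3 without KO 3. The causes were not tested. Gpx3 has the lowest depth of the members, with 20 to 214 counts per library.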
